A study of Mus musculus with 27 samples.

Results

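The innate immune sensors of nucleic acids were followed across all groups of the study as 9 genes, chosen by symbol because they encode receptors, adaptors and enzymes that recognize RNA or DNA and because the treatment delivers an RNA-cleaving effector. All 9 symbols, *Ddx58*, *Ifih1*, *Dhx58*, *Mavs*, *Cgas*, *Tlr3*, *Zbp1*, *Eif2ak2* and *Adar*, were found among the 39338 genes and added sequences of the table, and all 9 passed the filter on low counts, which left 21768 genes for testing. Each of the 27 libraries held RNA from EGFP-KASH+ nuclei sorted from the motor cortex of 1 mouse. The EGFP-KASH protein is a green fluorescent protein held at the nuclear envelope, so the sort marks nuclei transduced by its vector. The RNA-cleaving effector came on a separate vector. By staining of C9-BACexp motor cortex, the study found most but not all EGFP-KASH+ cells positive for the effector. C9-BACexp mice carry a bacterial artificial chromosome with the human C9ORF72 gene and its expanded repeat, as 1 transgenic line, and C57BL/6J littermates without it were the wild-type group.

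In the C9-BACexp mice, 3 received EGFP-KASH only, 6 the non-targeted crRNA (NTG) and 6 the repeat-targeting crRNA-13. In the C57BL/6J mice the numbers were 4, 5 and 3. All mice carried the EGFP-KASH vector, the NTG and crRNA-13 mice were also given a Cas13 vector, and a ubiquitous CAG promoter drove both proteins from AAV capsids of the PHP.eB type injected into the motor cortex. The effector was RfxCas13d-N2V8, a high-fidelity Cas13d, in the crRNA-13 mice. The NTG effector is RfxCas13d in the sample labels and RfxCas13d-N2V8 in the methods of the study. If the labels hold, crRNA-13 and NTG mice of both genotypes differed in effector as well as crRNA, and these cannot be told apart. Mice were injected young and at matched age and their nuclei sorted months later, and the age of the EGFP-KASH-only mice was not given in the sources used here. C57BL/6J mice hold no human C9ORF72, so crRNA-13 had no human target in them.

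RIG-I-like receptors are helicases that bind viral or misplaced dsRNA in the cytosol and signal through the mitochondrial adaptor MAVS to induce type I interferon. cGAS detects cytosolic DNA, TLR3 detects dsRNA in endosomes, and ZBP1 binds Z-form nucleic acids. PKR, the product of *Eif2ak2*, halts translation on binding dsRNA, and ADAR edits adenosines in dsRNA, which keeps cellular RNA from being sensed. Several of these genes are themselves induced by interferon through promoter elements bound by STAT and IRF factors, so their RNA can serve as a readout of interferon signaling. In resting brain the receptors are expressed at low levels.

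The promoters of the called sensors with an entry in the table used, and that of the third annotated start of *Adar*, are shown because they hold letters like those interferon-activated factors bind. Of the 9 genes, 7 had a promoter in the RefSeq table (GRCm38.p6), and *Dhx58* and *Zbp1* had no entry. Each promoter covers 300 bases around an annotated start and matched the GRCm39 genome once. Capitals mark GAAANNGAA, like the interferon-stimulated response element (ISRE), and TTCNNNGAA, like the gamma-activated site (GAS), on either strand.
Ddx58, chr4:40239776-40240075, minus strand: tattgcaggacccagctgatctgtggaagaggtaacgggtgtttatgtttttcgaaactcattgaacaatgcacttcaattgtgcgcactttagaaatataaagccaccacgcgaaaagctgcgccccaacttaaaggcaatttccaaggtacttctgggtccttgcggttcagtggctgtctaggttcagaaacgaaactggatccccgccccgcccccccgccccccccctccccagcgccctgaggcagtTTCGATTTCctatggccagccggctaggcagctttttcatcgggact
Ifih1, chr2:62476550-62476849, minus strand: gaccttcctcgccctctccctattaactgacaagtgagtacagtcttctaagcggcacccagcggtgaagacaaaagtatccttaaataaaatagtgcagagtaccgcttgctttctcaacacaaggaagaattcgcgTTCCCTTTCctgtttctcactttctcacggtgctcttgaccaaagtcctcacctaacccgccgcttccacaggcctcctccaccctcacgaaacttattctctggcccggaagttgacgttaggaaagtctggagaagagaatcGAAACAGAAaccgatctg
Eif2ak2, chr17:79189952-79190251, minus strand: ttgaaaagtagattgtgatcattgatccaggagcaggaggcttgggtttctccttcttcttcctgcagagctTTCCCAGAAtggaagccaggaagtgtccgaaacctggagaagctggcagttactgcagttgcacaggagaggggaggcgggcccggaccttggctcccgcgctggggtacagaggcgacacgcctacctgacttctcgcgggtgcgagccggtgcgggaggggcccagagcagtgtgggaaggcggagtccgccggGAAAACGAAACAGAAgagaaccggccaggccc
Adar, start 3, chr3:89637775-89638074, plus strand: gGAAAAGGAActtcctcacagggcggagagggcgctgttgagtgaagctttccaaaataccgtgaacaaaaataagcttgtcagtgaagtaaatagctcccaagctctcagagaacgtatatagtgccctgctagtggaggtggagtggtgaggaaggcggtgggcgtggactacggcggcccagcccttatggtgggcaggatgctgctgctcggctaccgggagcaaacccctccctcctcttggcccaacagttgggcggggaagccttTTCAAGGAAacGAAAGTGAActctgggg

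The ISRE-like letters occurred in 8.56% of all 32851 promoters of the table and the GAS-like letters in 8.30%. The *Ddx58* promoter held 1 ISRE-like match, 3 bases after the start. The *Ifih1* promoter held 2, at 112 bases before and 32 after it. *Eif2ak2* held 2 overlapping ISRE-like matches, at 18 and 24 bases after the start, and a GAS-like match 178 bases before it. The third start of *Adar* held 2 ISRE-like matches and 1 GAS-like match, and the other starts of *Adar* held neither. No match was found in these windows of *Mavs*, *Cgas* and *Tlr3*. In GRCm39, *Ddx58* (named *Rigi* in GENCODE) spans chr4:40203772-40239852, *Ifih1* chr2:62425714-62476607, *Dhx58* chr11:100585710-100595097, *Mavs* chr2:131075442-131096740, *Cgas* chr9:78337802-78350535, *Tlr3* chr8:45848702-45864117, *Zbp1* chr2:173033815-173060724, *Eif2ak2* chr17:79159972-79190012 and *Adar* chr3:89622329-89660753.

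The libraries held 21508829 to 36777972 counts, with a median of 29001126. Levels are given as CPM, counts scaled to a common library size with TMM factors. They are not corrected for gene length, so levels are compared between mice and not between genes. As a check of the labels, human C9ORF72 summed to 64.1 to 103 CPM in the 15 C9-BACexp libraries and was at 0 in 11 of 12 C57BL/6J libraries. The exception, C57BL/6J crRNA-13 replicate 5, held 0.436 CPM. This library also stood apart for the sensors. It was the highest of all 27 libraries for 6 of the 9 sensors, where it was the highest for 2.96% of the 16028 genes averaging 1 CPM or more. The sensor calls below are therefore given with and without it.

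Calls required more than a 1.2-fold difference together with an adjusted p below 0.05 in edgeR's quasi-likelihood F test (Benjamini-Hochberg), in a model with 4 factors of unwanted variation estimated from residuals. Fold changes (log2) are given with their standard error (SE). For the sensors called, the SE was smaller with the factors than without them, and the fit without them is given beside each sensor call. The factors carried 49.1% of the within-group variance of *Ddx58*, 39.1% of that of *Ifih1*, 52.6% of that of *Eif2ak2* and 87.6% of that of *Adar*, against a median of 44.1% over all genes. The counts pool spliced and unspliced RNA, and fewer cells of a type cannot be told apart from less RNA per cell.

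Among the RIG-I-like receptors, *Ddx58* encodes RIG-I, which binds short dsRNA with triphosphate ends. In C57BL/6J mice with crRNA-13, *Ddx58* stood at 7.60, 3.45 and 42.1 CPM (replicates 1, 2 and 5). With NTG it stood at 2.08, 6.88, 1.72, 2.99 and 1.65 CPM, and with EGFP-KASH only at 1.15, 1.52, 3.20 and 3.34 CPM. Replicate 5 with crRNA-13 exceeded every other library by at least 5.54-fold, the groups with crRNA-13 and NTG overlapped, and the lowest crRNA-13 mouse lay just above the highest EGFP-KASH-only mouse. In C9-BACexp mice the crRNA-13 group ran from 1.13 to 7.11 CPM with a median of 2.84, the NTG group from 1.02 to 2.31 with a median of 1.49, and the EGFP-KASH-only mice stood at 2.60, 1.19 and 1.24 CPM.

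*Ifih1* encodes MDA5, the receptor of long dsRNA. Its level was 10.7, 6.44 and 49.7 CPM in C57BL/6J mice with crRNA-13, against 2.04, 8.58, 2.62, 2.95 and 2.78 CPM with NTG. With EGFP-KASH only it was 2.73, 2.75, 2.65 and 3.55 CPM, below all 3 crRNA-13 mice. Replicate 2 of the NTG group, at 8.58 CPM, lay among the crRNA-13 mice. In C9-BACexp mice *Ifih1* ran from 1.79 to 14.9 CPM with crRNA-13 (median 3.74) and from 2.08 to 3.58 CPM with NTG (median 2.78), and it stood at 0.559, 2.84 and 1.33 CPM with EGFP-KASH only. The value of 14.9 CPM was that of 1 mouse, replicate 2, and the other 5 reached at most 5.19 CPM.

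*Dhx58* encodes LGP2, a receptor of this family without signaling domains that modulates the others. It stood at 4.99, 2.33 and 10.4 CPM in C57BL/6J mice with crRNA-13, at 2.03 to 3.61 CPM (median 3.07) with NTG and at 1.65 to 3.93 CPM (median 1.82) with EGFP-KASH only. In C9-BACexp mice the medians were 2.27 CPM with crRNA-13, 1.85 with NTG and 2.68 with EGFP-KASH only, all within a range of 0.664 to 3.76 CPM. The lowest C57BL/6J crRNA-13 mouse thus lay within the range of every other group.

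**Figure D1:**
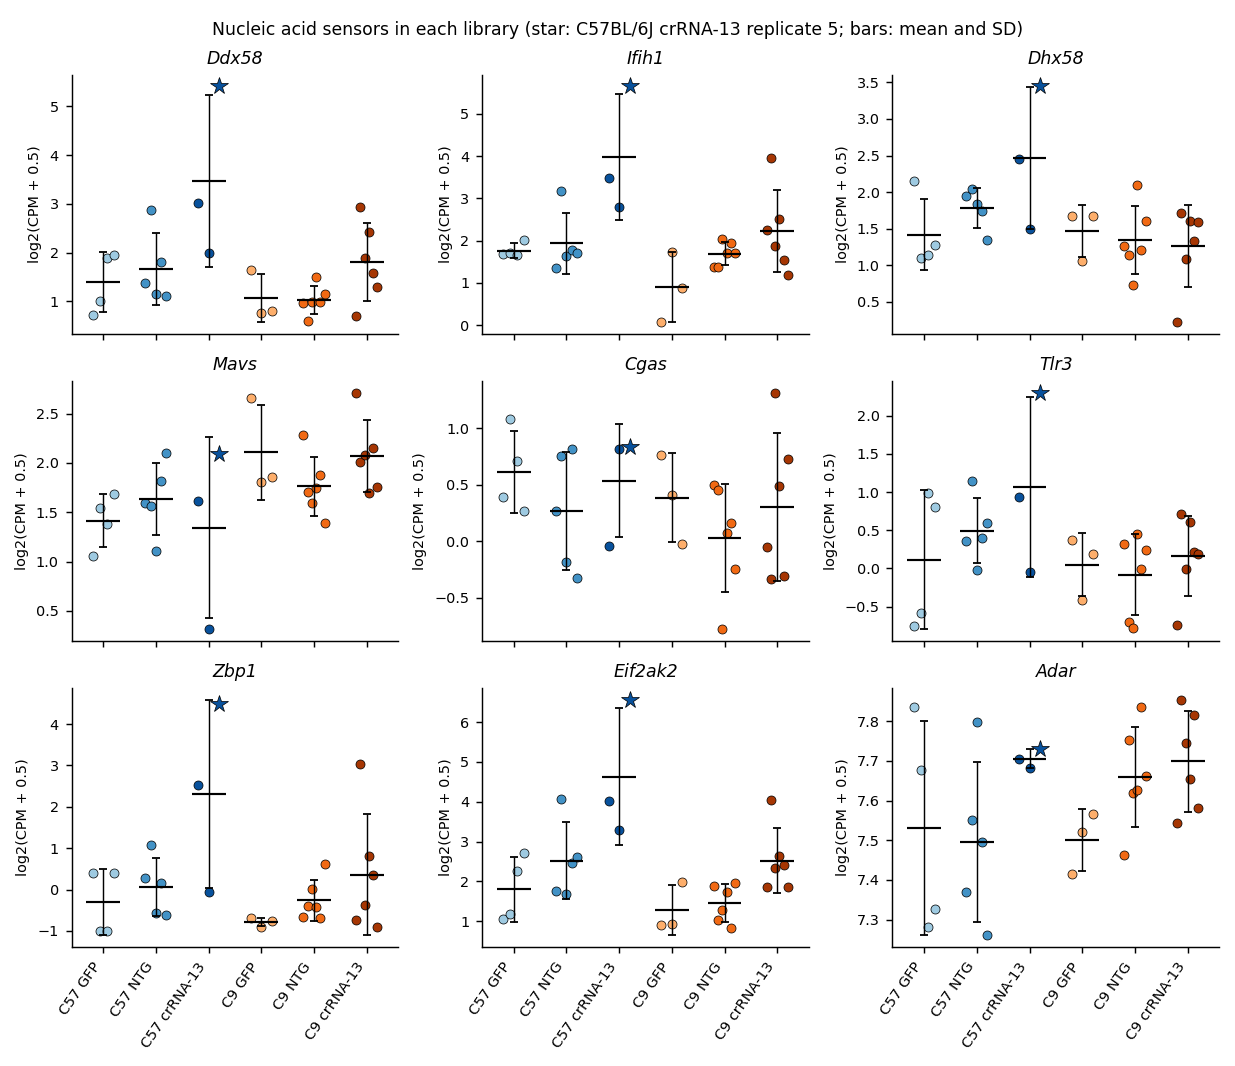
Level of each of the 9 sensors in every library, as log2(CPM + 0.5), by group (C57, C57BL/6J; C9, C9-BACexp; GFP, EGFP-KASH only). Horizontal lines are means and error bars the SD over 3 to 6 mice, and the star, C57BL/6J crRNA-13 replicate 5, is the highest point for *Ddx58*, *Ifih1*, *Dhx58*, *Tlr3*, *Zbp1* and *Eif2ak2*.

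The adaptor and the DNA sensor were not called in any comparison. *Mavs*, the adaptor of RIG-I and MDA5, stood at 2.56, 0.746 and 3.76 CPM in C57BL/6J mice with crRNA-13, at 1.65 to 3.79 CPM (median 2.51) with NTG and at 1.58 to 2.71 CPM (median 2.26) with EGFP-KASH only. In C9-BACexp mice its medians were 3.63 CPM with crRNA-13, 2.81 with NTG and 3.12 with EGFP-KASH only. The highest mean was that of the C9-BACexp mice with EGFP-KASH only (3.98 ± 1.61 CPM, SD, n = 3) and the lowest that of C57BL/6J mice with EGFP-KASH only (2.20 ± 0.484 CPM, n = 4). Their log2 difference of 0.78 (SE 0.35) did not pass the test (adjusted p = 0.273 in edgeR). *Cgas*, which makes the second messenger cGAMP on binding DNA, had only 1.66 to 47.0 counts per library, and its group means lay between 0.562 and 1.06 CPM with overlapping ranges.

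*Tlr3* had 1.54 to 162 counts per library. It stood at 1.42, 0.466 and 4.41 CPM in C57BL/6J mice with crRNA-13, at 0.482 to 1.70 CPM (median 0.815) with NTG and at 0.0958 to 1.48 CPM (median 0.709) with EGFP-KASH only. In C9-BACexp mice no library exceeded 1.14 CPM. Replicate 5 was the only library above 1.70 CPM.

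*Zbp1* showed the widest spread between mice. It stood at 5.24, 0.466 and 21.9 CPM in C57BL/6J mice with crRNA-13 and at 0.707, 1.60, 0.172, 0.611 and 0.150 CPM with NTG. With EGFP-KASH only it stood at 0.815 and 0.814 CPM in replicates 2 and 5 and had no count in replicates 3 and 4, which allows up to 0.127 and 0.0968 CPM (3 counts of a library, counting error only). In C9-BACexp mice *Zbp1* ran from 0.0319 to 7.73 CPM with crRNA-13 (median 0.522), from 0.123 to 1.03 with NTG (median 0.253) and from 0.0360 to 0.120 with EGFP-KASH only. The value of 7.73 CPM belonged to replicate 2, the mouse that was also highest of its group for *Ddx58*, *Ifih1*, *Dhx58*, *Tlr3*, *Eif2ak2* and *Adar*.

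*Eif2ak2* stood at 15.8, 9.28 and 94.4 CPM in C57BL/6J mice with crRNA-13, against 2.90, 16.4, 2.69, 4.99 and 5.60 CPM with NTG. With EGFP-KASH only it stood at 1.58, 1.78, 4.29 and 6.08 CPM, below every crRNA-13 mouse. In C9-BACexp mice it ran from 3.12 to 16.1 CPM with crRNA-13 (median 4.69), from 1.27 to 3.38 with NTG (median 2.39) and stood at 1.36, 1.40 and 3.49 CPM with EGFP-KASH only. The lowest 2 C9-BACexp mice with crRNA-13, at 3.12 and 3.13 CPM, lay within the range of the NTG mice. The gene overlaps *Gpatch11* on the opposite strand over 10650 bases. *Gpatch11* stood at 6.57 CPM in replicate 5 and at 5.38 to 11.5 CPM in the other libraries, and was not called in any comparison.

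In order of their means, the groups stood at 39.9 ± 47.4 CPM of *Eif2ak2* for C57BL/6J crRNA-13 (SD, n = 3), 6.51 ± 5.66 for C57BL/6J NTG (n = 5), 6.23 ± 4.92 for C9-BACexp crRNA-13 (n = 6), 3.43 ± 2.15 for C57BL/6J EGFP-KASH only (n = 4), 2.37 ± 0.904 for C9-BACexp NTG (n = 6) and 2.08 ± 1.22 for C9-BACexp EGFP-KASH only (n = 3). Each pair of neighbors in this order overlapped. For *Ddx58* and *Ifih1* the C57BL/6J crRNA-13 group was again first, at 17.7 ± 21.2 and 22.3 ± 23.8 CPM, and C9-BACexp crRNA-13 followed at 3.45 ± 2.19 and 5.30 ± 4.87 CPM, and these 2 groups overlapped for both genes.

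*Adar* had a narrow range. Its level lay between 153 and 231 CPM in all 27 libraries, and the group means ran from 181 ± 10.0 CPM (C9-BACexp with EGFP-KASH only, SD, n = 3) to 208 CPM in the crRNA-13 groups of both genotypes (SD 3.81, n = 3, in C57BL/6J and 18.2, n = 6, in C9-BACexp). The 3 C57BL/6J mice with crRNA-13 stood at 208, 205 and 212 CPM, and replicate 5 ranked only 8th of 27. The table gives 1 value per gene and so does not separate the transcripts of the 3 starts.

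The comparison of crRNA-13 with NTG in C57BL/6J mice was made in mice without the human target. It covers the crRNA together with any difference in effector. Of the 9 sensors 3 rose, *Ddx58*, *Ifih1* and *Eif2ak2*, and none fell. Over all genes tested 0.312% were called higher. *Ddx58* was higher by 2.30 on the log2 scale (SE 0.46, 95% interval 1.33 to 3.28), *Ifih1* by 2.44 (SE 0.50) and *Eif2ak2* by 2.38 (SE 0.47), each with an adjusted p of 0.0355 in edgeR. *Zbp1* had the largest difference, 3.50, but with an SE of 1.29 and an adjusted p of 0.278 in edgeR. *Dhx58* differed by 0.92 (SE 0.38, edgeR adjusted p = 0.339), *Tlr3* by 0.82 (SE 0.55), *Cgas* by 0.37 (SE 0.64) and *Mavs* by -0.12 (SE 0.34). For *Adar* the difference of 0.21 had a small SE of 0.06 and an adjusted p of 0.0939 in edgeR. The median over the 9 sensors was 0.92, against 0.003 over all genes. Without the factors the differences of *Ddx58*, *Ifih1* and *Eif2ak2* were 2.53, 2.55 and 2.61 and edgeR's adjusted p 0.314 for each.

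In limma-trend with the same factors, the kind of test the study used, no sensor was called, nor any other gene. The differences were 1.98, 2.18 and 2.22 and limma-trend's adjusted p 0.0842, 0.0766 and 0.0713 for *Ddx58*, *Ifih1* and *Eif2ak2*. With its own factors, the study did report genes changed in this comparison, and tied them to immune and interferon response terms. DESeq2 called the same 3 sensors with and without the factors.

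The size of these differences depended on 1 mouse. Without C57BL/6J crRNA-13 replicate 5, no sensor was called by edgeR, 4 of 9 had p under 0.05 before adjustment, and the differences were 0.98 (SE 0.44, adjusted p = 0.297) for *Ddx58*, 1.2 (SE 0.45, adjusted p = 0.189) for *Ifih1* and 1.11 (SE 0.46, adjusted p = 0.244) for *Eif2ak2* in edgeR. *Zbp1* then differed by 1.69 (SE 1.37), *Dhx58* by 0.29 (SE 0.40), *Tlr3* by 0.10 (SE 0.67) and *Adar* by 0.21 (SE 0.06). The median of the 9 sensors was then 0.29. Without replicate 1 of the NTG group no sensor was called either, but the differences stayed at 2.16 for *Ddx58*, 2.20 for *Ifih1* and 2.09 for *Eif2ak2*, with adjusted p of 0.140 to 0.156 in edgeR. Without replicate 3 of the NTG group *Adar* was called as well, at 0.29 (SE 0.06, edgeR adjusted p = 0.0257).

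Against EGFP-KASH only, the C57BL/6J mice with crRNA-13 had higher levels of the same 3 sensors. Over all genes 0.335% were called higher. *Eif2ak2* was higher by 3.30 on the log2 scale (SE 0.54, edgeR adjusted p = 0.0113), *Ddx58* by 2.70 (SE 0.51, adjusted p = 0.0179 in edgeR) and *Ifih1* by 2.70 (SE 0.56, adjusted p = 0.0302 in edgeR). For these 3 of the 9 sensors, every crRNA-13 mouse lay above every EGFP-KASH-only mouse, which held for 2.58% of all genes. *Zbp1* differed by 4.6 (SE 1.44, edgeR adjusted p = 0.202), *Tlr3* by 1.85 (SE 0.59, edgeR adjusted p = 0.214), *Dhx58* by 1.33 (SE 0.40, edgeR adjusted p = 0.187) and *Adar* by 0.18 (SE 0.06, edgeR adjusted p = 0.224). *Mavs* (0.12, SE 0.35) and *Cgas* (-0.13, SE 0.67) showed no difference beyond their SE. Without the factors *Eif2ak2*, *Ddx58* and *Ifih1* differed by 3.53, 2.94 and 2.93, with adjusted p of 0.173, 0.225 and 0.225 in edgeR. Without replicate 5 of the crRNA-13 group the differences were 2.07 (SE 0.48, edgeR adjusted p = 0.0609) for *Eif2ak2*, 1.42 (SE 0.46, edgeR adjusted p = 0.172) for *Ddx58* and 1.52 (SE 0.47, edgeR adjusted p = 0.146) for *Ifih1*, and none was called. *Zbp1*, *Tlr3* and *Dhx58* then differed by 2.93 (SE 1.38), 1.11 (SE 0.69) and 0.73 (SE 0.40). Before adjustment 5 sensors then had p under 0.05 in edgeR. Without replicates 3, 4 or 5 of the EGFP-KASH-only group in turn, only *Eif2ak2* was called, with differences of 2.60 to 3.08 for *Ddx58* and 2.61 to 2.89 for *Ifih1*. Without replicate 2 of that group, *Dhx58* and *Adar* were called as well. Limma-trend with the factors called the same 3 sensors and DESeq2 added *Zbp1*. The same 3 crRNA-13 mice entered this comparison and the one with NTG.

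NTG itself was also compared with EGFP-KASH only. As in crRNA-13 against EGFP-KASH only, the groups differed by the whole Cas13 vector. Its effector, its crRNA and the added vector itself cannot be told apart. In C57BL/6J mice edgeR called no gene, 0% of those tested, where 7.86% of genes and no sensor had p under 0.05 before adjustment and DESeq2 with the factors called 27 genes higher and 21 lower. The largest sensor differences were 1.1 (SE 1.26) for *Zbp1*, 1.03 (SE 0.54) for *Tlr3* and 0.92 (SE 0.47) for *Eif2ak2*. In C9-BACexp mice 0.0322% of genes were called and none of the sensors, with 1 of 9, *Adar*, at p under 0.05 before adjustment (log2 difference 0.16, SE 0.06, edgeR adjusted p = 0.278). *Ifih1* differed by 1.09 (SE 0.54) in these mice. DESeq2 and limma-trend with the same factors also called no sensor in either comparison.

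In C9-BACexp mice, where crRNA-13 has its human target, no sensor was called between crRNA-13 and NTG by edgeR, where 0.482% of all genes were called in either direction. *Eif2ak2* differed by 1.34 (SE 0.40, edgeR adjusted p = 0.0862) and *Ddx58* by 1.01 (SE 0.39, edgeR adjusted p = 0.186), the only 2 sensors with p under 0.05 before adjustment, as had 10.3% of all genes. *Zbp1* differed by 1.15 (SE 1.07), *Ifih1* by 0.65 (SE 0.41) and *Dhx58* by -0.15 (SE 0.30). *Mavs*, *Cgas* and *Tlr3* differed by 0.34 (SE 0.26), 0.43 (SE 0.52) and 0.42 (SE 0.46). The 95% interval of *Adar* (0.04, SE 0.04) ran from -0.06 to 0.13. DESeq2 with the same factors called *Eif2ak2* and limma-trend called none. Against EGFP-KASH only no sensor was called by edgeR either, with 0.910% of genes called. Before adjustment 4 sensors, and 12.1% of all genes, had p under 0.05. They were *Ifih1* (1.74, SE 0.55, edgeR adjusted p = 0.104), *Eif2ak2* (1.48, SE 0.52, edgeR adjusted p = 0.146), *Adar* (0.20, SE 0.06, edgeR adjusted p = 0.0627) and *Ddx58* (1.04, SE 0.49, edgeR adjusted p = 0.301). DESeq2 with the factors called *Ifih1* and *Eif2ak2* and limma-trend none.

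**Figure D2:**
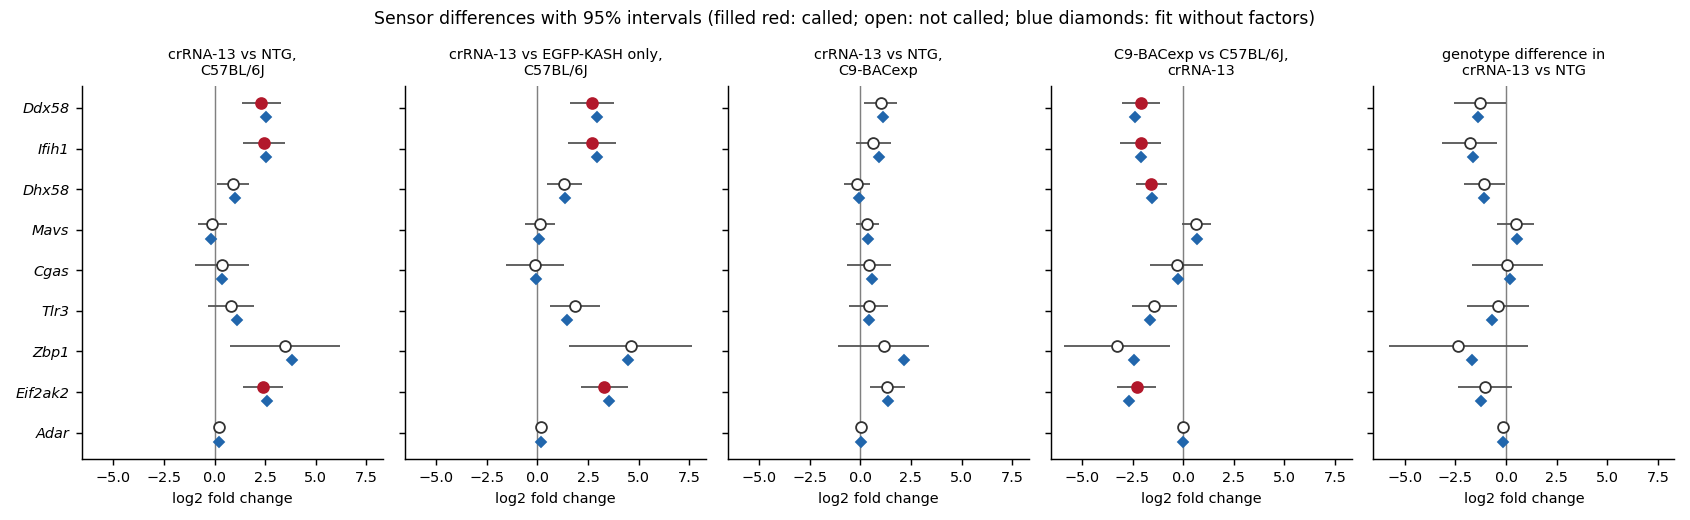
Log2 difference of each sensor (circles, with 95% intervals) in 5 comparisons, filled where called, and the same difference in the fit without factors (diamonds). The calls are 3 in each crRNA-13 comparison in C57BL/6J mice and 4 between the genotypes with crRNA-13, and *Adar* has the narrowest intervals.

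Between the genotypes with crRNA-13, 4 sensors were lower in C9-BACexp than in C57BL/6J mice and none was higher, where 0.639% of all genes were called lower. *Eif2ak2* fell by 2.30 on the log2 scale (SE 0.47, edgeR adjusted p = 0.00932), *Ddx58* by 2.08 (SE 0.45, edgeR adjusted p = 0.0146), *Ifih1* by 2.09 (SE 0.48, edgeR adjusted p = 0.0225) and *Dhx58* by 1.58 (SE 0.36, edgeR adjusted p = 0.0196). *Tlr3* differed by -1.42 (SE 0.52, edgeR adjusted p = 0.165) and *Zbp1* by -3.26 (SE 1.24, edgeR adjusted p = 0.186). *Mavs* was the only sensor with a positive difference, 0.65 (SE 0.34, edgeR adjusted p = 0.357), and *Adar* differed by -0.01 (SE 0.05). Without the factors *Eif2ak2*, *Ddx58*, *Ifih1* and *Dhx58* differed by -2.68, -2.36, -2.07 and -1.55, with adjusted p from 0.175 to 0.298 in edgeR. Without C57BL/6J crRNA-13 replicate 5 none was called, 4 sensors had p under 0.05 before adjustment in edgeR, and *Eif2ak2*, *Ddx58*, *Ifih1* and *Dhx58* differed by -1.13 (SE 0.44), -0.85 (SE 0.43), -0.92 (SE 0.43) and -0.94 (SE 0.37), with adjusted p from 0.217 to 0.364 in edgeR. *Mavs* then differed by 1.1 (SE 0.37, edgeR adjusted p = 0.141), *Zbp1* by -1.68 (edgeR adjusted p = 0.577) and *Tlr3* by -0.73 (SE 0.64). Adjusted within this comparison alone, rather than together over 5 comparisons, *Eif2ak2* alone was called (adjusted p = 0.0488 in edgeR). Without C9-BACexp replicate 1 *Dhx58* was not called (-1.31, SE 0.38), without C9-BACexp replicate 6 *Ifih1* was not called (-1.93, SE 0.53), and without C57BL/6J replicate 2 *Tlr3* was called (-2.04, SE 0.54). The same 3 C57BL/6J crRNA-13 mice entered here too. Limma-trend and DESeq2 with the factors called the same 4 sensors. The C9-BACexp mice overlapped with the other 2 C57BL/6J mice for all 4.

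With NTG, edgeR called no sensor between the genotypes, although 6.59% of all genes were called. Before adjustment 3 of the 9 had p under 0.05 in edgeR, as had 26% of all genes, and these were *Eif2ak2* (-1.26, SE 0.41, edgeR adjusted p = 0.121), *Tlr3* (-1.03, SE 0.47, edgeR adjusted p = 0.285) and *Adar* (0.16, SE 0.05, edgeR adjusted p = 0.0713). DESeq2 with the factors called *Eif2ak2* lower and limma-trend called none. With EGFP-KASH only, 2.86% of genes were called and no sensor, by edgeR, DESeq2 or limma-trend, and *Mavs* alone had p under 0.05 before adjustment in edgeR. The median over the 9 sensors was -0.51 with NTG and -0.42 with EGFP-KASH only. With crRNA-13 it was -1.58, and -0.85 without C57BL/6J crRNA-13 replicate 5. The difference between the genotypes in crRNA-13 against NTG was tested directly. It was called for 0.00459% of genes and for no sensor in edgeR, DESeq2 or limma-trend. *Ifih1* had the smallest p (0.0113 in edgeR, log2 difference -1.80, SE 0.65, adjusted p = 0.325), followed by *Adar* (-0.17, SE 0.07), *Dhx58* (-1.07, SE 0.48) and *Ddx58* (-1.29, SE 0.60). The 95% interval of this difference for *Eif2ak2* ran from -2.37 to 0.28. Without C57BL/6J crRNA-13 replicate 5 the median over the sensors was 0.00, against -1.04 with it.

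**Figure D3:**
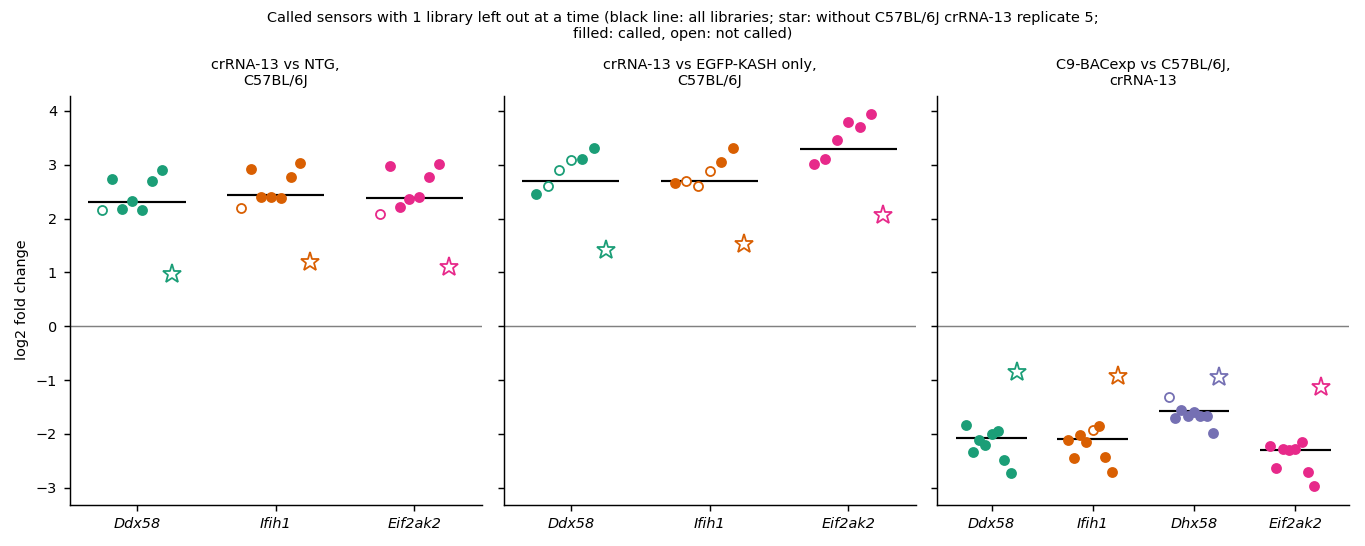
Log2 difference of each called sensor with 1 library of the compared groups left out at a time (circles; filled, called; open, not called), beside the value with all libraries (black line). The star, without C57BL/6J crRNA-13 replicate 5, lies nearest 0 for every sensor and is open in all 3 comparisons.

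Marker genes of the cell types a sort of cortical nuclei can hold were summed in each library. The 10 neuron markers, *Rbfox3*, *Snap25* and *Syt1* among them, summed to 6180 to 8220 CPM, and 6260 CPM in C57BL/6J crRNA-13 replicate 5, which ranked 26th of 27. The 20 microglia markers, all tested, summed to 121 CPM in replicate 5 and to 38.1 to 150 CPM in the other libraries. Replicate 5 was the highest library for 9 of these 20, among them *C1qa*, *C1qb*, *C1qc*, *Itgam*, *Ptprc* and *Ctss*. By group, microglia markers summed to 77.2 to 121 CPM in C57BL/6J mice with crRNA-13, 38.1 to 150 with NTG and 65.6 to 105 with EGFP-KASH only. In C9-BACexp mice they summed to 56.4 to 114, 61.5 to 84.2 and 68.7 to 83.2 CPM. No microglia marker was called in the 3 comparisons in which sensors were called, with medians of 0.72, 0.71 and -0.70 on the log2 scale, and 4, 5 and 3 of the 20 had p under 0.05 before adjustment in edgeR. Without replicate 5 these medians were 0.34, 0.38 and -0.36.

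Markers of infiltrating immune cells were near 0. Of 16 listed, 15 were in the table and 2 passed the filter. The 15 summed to 4.14 CPM in replicate 5 and at most to 7.49 CPM elsewhere, and replicate 5 was highest for 7 of the 15. The T cell gene *Cd3g* stood at 0.790 CPM in replicate 5 and at most at 0.102 CPM in any other library, and *Cd3e* at 0.409 and at most 0.0933 CPM. By group these markers summed to 0.466 to 4.14 CPM in C57BL/6J mice with crRNA-13, 0 to 1.53 with NTG and 0.127 to 1.87 with EGFP-KASH only. Replicate 5 was the highest library for 3 of the 10 astrocyte markers. Among them was the reactive astrocyte gene *Gfap*, at 21.1 CPM in replicate 5 and at most 15.1 CPM elsewhere. The 10 astrocyte markers summed to 1150 CPM in replicate 5 and to 705 to 1180 CPM elsewhere, and 2 of them were called lower in C9-BACexp than in C57BL/6J mice with crRNA-13 and 3 with NTG. Without replicate 5 these counts were 0 and 3 in edgeR, with 4 and 7 of the 10 at p under 0.05 before adjustment. The 10 oligodendrocyte markers summed to 385 to 4880 CPM (963 in replicate 5), and 1, 8 and 4 of them were called higher in C9-BACexp than in C57BL/6J mice with crRNA-13, NTG and EGFP-KASH only (0, 8 and 5 without replicate 5). Between crRNA-13 and NTG or EGFP-KASH only in C57BL/6J mice, edgeR called none of these markers. Of the 10, 5 and 4 had p under 0.05 before adjustment, and the medians were 0.52 and 0.42. Without replicate 5, 7 and 6 had p under 0.05, the medians were 0.65 and 0.56, and *Mbp* was called against NTG. The 10 endothelial markers summed to 16.1 to 76.2 CPM (49.8 in replicate 5). In C9-BACexp against C57BL/6J mice with crRNA-13, NTG and EGFP-KASH only, their median log2 differences were -0.64, -0.72 and -0.84. EdgeR called 0, 0 and 1 of them lower, and 3, 5 and 4 had p under 0.05 before adjustment, as had 12.5%, 26% and 19% of all genes. With crRNA-13 and without replicate 5 the median was -0.74, with 2 at p under 0.05. Over the 27 libraries, Pearson's r of the summed markers with *Eif2ak2* was 0.427 for microglia, 0.513 for astrocytes, 0.384 for endothelial cells, 0.347 for infiltrating immune cells, -0.0177 for oligodendrocytes and -0.282 for neurons. Without replicate 5 it was 0.295, 0.389, 0.311, 0.132, 0.0541 and -0.114 in the same order. The part of these cells in the sensor differences was not tested.

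**Figure D4:**
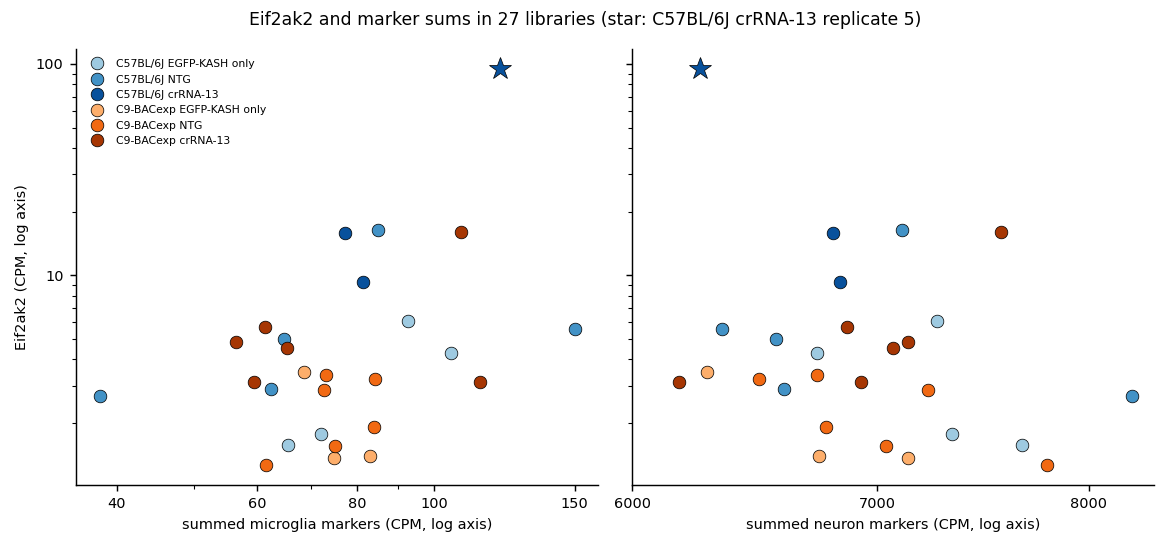
*Eif2ak2* (CPM, log axis) against the summed microglia markers (left) and neuron markers (right; CPM, log axes) in each of 27 libraries, colored by group. The star, C57BL/6J crRNA-13 replicate 5, has 94.4 CPM of *Eif2ak2* with 121 CPM of microglia and 6260 CPM of neuron markers, and the C57BL/6J NTG library with the most microglia markers, 150 CPM, has 5.60 CPM of *Eif2ak2*.

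Around the sensors, 7 lists of related genes were counted in the same comparisons. Interferon-stimulated effectors, the antiviral genes downstream of the sensors, had the most calls. Of 25 tested, 8 were called higher with crRNA-13 than with NTG in C57BL/6J mice (median 2.35 on the log2 scale), 13 higher than with EGFP-KASH only (median 3.32), and 13 lower in C9-BACexp than in C57BL/6J mice with crRNA-13 (median -1.96), against medians of 0.003, 0.015 and -0.004 over all genes. In the first of these, *Ifit3* was higher by 2.60 (SE 0.50), *Stat2* by 1.30 (SE 0.25) and *Mx2* by 2.90 (SE 0.57), with adjusted p of 0.0316 to 0.0351 in edgeR. Against EGFP-KASH only, *Oas2* was higher by 6.09 (SE 1.03) and *Xaf1* by 2.48 (SE 0.42). STAT2 carries the interferon signal to the nucleus, IFIT3 and MX2 act against viral RNA and replication, and OAS2 makes the messenger that activates RNase L. Between the genotypes with crRNA-13, *Ifi44* fell by 5.55 (SE 1.11) and *Ifit1* by 3.09 (SE 0.72). The effectors also had medians below 0 between the genotypes with NTG (-0.68, 0 of 25 called) and with EGFP-KASH only (-0.65). With EGFP-KASH only, *Cmpk2* and *Ifitm3* were called lower (edgeR adjusted p = 0.0124 and 0.0417, and 0.688 and 0.704 without the factors). Before adjustment 5 and 4 of 25 had p under 0.05 in edgeR, as had 26% and 19% of all genes.

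Without C57BL/6J crRNA-13 replicate 5, the counts of 8, 13 and 13 called effectors became 0, 1 (*Oas2*) and 1 (*Ifit3*) of 25 in edgeR. Before adjustment 14, 20 and 9 then had p under 0.05, and the medians were 1.34, 2.32 and -1.03. Without the factors edgeR called none of the 25 in these comparisons. In C9-BACexp mice 1 of 25, *Oas1a*, was called higher with crRNA-13 than with NTG (edgeR adjusted p = 0.0202, and 0.279 without the factors). Against EGFP-KASH only, 3 were called higher. The medians of the 25 in these mice were 0.93 and 1.40, against -0.024 and 0.031 over all genes. Before adjustment 12 and 12 of them had p under 0.05 in edgeR, as had 10.3% and 12.1% of all genes. In the fit without C57BL/6J crRNA-13 replicate 5 these medians were 0.88 and 1.39, with 13 and 13 at p under 0.05.

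Before adjustment, 11.1%, 11.2% and 12.5% of all genes had p under 0.05 in the 3 comparisons with sensor calls, which is the background for such counts in each list. In edgeR without the factors these shares were 4.81%, 4.77% and 5.17%. The share was lower without the factors in every other comparison too. Few of the 24 tested genes for other nucleic acid sensors were called. *Ddx60*, a helicase that promotes RIG-I signaling, was the only one called between crRNA-13 and NTG in C57BL/6J mice, by 2.75 on the log2 scale (SE 0.58, edgeR adjusted p = 0.0409). It stood at 50.3 ± 54.8 CPM with crRNA-13 (SD, n = 3) and 6.53 ± 7.03 CPM with NTG (n = 5). Against EGFP-KASH only, *Ddx60* (4.36, SE 0.69) and *Zc3hav1*, which encodes the CpG-RNA-binding protein ZAP (3.30, SE 0.60), were called. Without the factors *Ddx60* differed by 2.94 and 4.05 and *Zc3hav1* by 3.31, with adjusted p of 0.610, 0.278 and 0.173 in edgeR. None of the 24 was called between the genotypes with crRNA-13 by edgeR, where 7 had p under 0.05 before adjustment. Without C57BL/6J crRNA-13 replicate 5 edgeR called none of the 24 in these 3 comparisons, with 7, 7 and 1 at p under 0.05 before adjustment. In C9-BACexp mice *Ddx60* was called between crRNA-13 and EGFP-KASH only, by 3.67 (SE 0.77, edgeR adjusted p = 0.0125, and 0.497 without the factors). Between the genotypes with NTG, *Ddx1* was lower in C9-BACexp mice by 0.35 (SE 0.07, edgeR adjusted p = 0.00927, and 0.533 without the factors).

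None of the 26 tested adaptors and signaling genes, such as *Sting1*, *Tbk1* and *Irf3*, was called by edgeR in these 3 comparisons, with medians of 0.15, 0.33 and -0.13 and 5, 9 and 6 genes at p under 0.05 before adjustment (7, 8 and 4 without replicate 5). Outside them, *Ticam1* was higher by 0.89 (SE 0.17) and *Chuk* lower by 0.35 (SE 0.08) in C9-BACexp than in C57BL/6J mice with NTG. Their adjusted p was 0.00695 and 0.0249 in edgeR, and 0.339 and 0.639 without the factors. Of 18 inhibitors of sensing 1 was called in these 3 comparisons, *Samhd1*, a dNTP hydrolase, which fell by 0.80 in C9-BACexp against C57BL/6J mice with crRNA-13 (SE 0.18, edgeR adjusted p = 0.0203) and was not called without replicate 5 or without the factors (adjusted p = 0.371 in edgeR). Another, *Rnf5*, fell by 1.03 between the genotypes with EGFP-KASH only (SE 0.27, edgeR adjusted p = 0.0401, and 0.809 without the factors). The other eIF2alpha kinases and stress response genes downstream of PKR, 15 in number, had no call by edgeR in these 3 comparisons, medians of 0.00, 0.08 and 0.08, and 1, 2 and 2 genes at p under 0.05 before adjustment (1, 0 and 0 without replicate 5). *Trib3* of this list was higher in C9-BACexp than in C57BL/6J mice with EGFP-KASH only, by 2.79 (SE 0.54, edgeR adjusted p = 0.00622, and 0.102 without the factors). The 6 other RNA-editing deaminases had no call by edgeR in these comparisons either (medians -0.08, 0.07 and -0.12, with 0, 1 and 0 at p under 0.05 before adjustment, and none without replicate 5). Of 14 interferons and interferon receptors only 6 passed the filter on low counts, and none was called by edgeR or had p under 0.05 before adjustment in these 3 comparisons, with or without replicate 5.

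**Figure D5:**
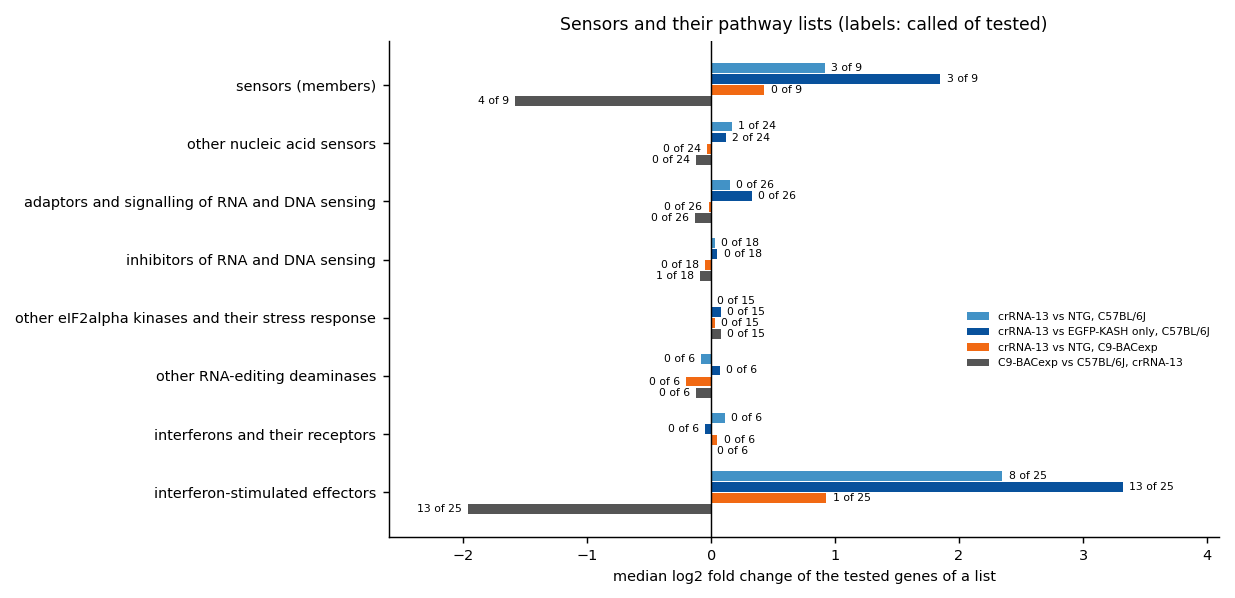
Median log2 difference of the tested genes in the sensors and 7 related lists, in 4 comparisons (bars), with the number called of those tested beside each bar. Interferon-stimulated effectors have the longest bars, from 3.32 to -1.96, and the other lists lie between -0.20 and 0.33 except for the sensors.

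The genes whose levels over the 27 libraries were most like those of each sensor were taken from Pearson's correlation of log2(CPM + 0.5). They are a description, since all values share their libraries and replicate 5 lies far out. For *Ddx58* they were *Irf7* (r = 0.946), *Ifit1* (0.944) and *Oas1g* (0.940), and for *Eif2ak2* they included *Ifit1* (0.935) and *Usp18* (0.932). Without replicate 5 these 5 values were 0.890 to 0.913. For *Ifih1* they were *Parp9* (0.934), *Parp14* (0.924) and *Gbp7* (0.919), for *Zbp1* *Gbp5* (0.909), *Oas1g* (0.908) and *Parp3* (0.901), and for *Dhx58* *Herc6* (0.762), *Phf11d* (0.741) and *Gbp5* (0.728). Without replicate 5 the values were 0.880, 0.865 and 0.870 for *Ifih1* and 0.844, 0.839 and 0.837 for *Zbp1*. The values of *Dhx58* were then 0.576, 0.520 and 0.546.

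*Adar* and *Mavs* had other neighbors. *Adar* was most like *Adgrb2* (0.884), *Ankrd52* (0.883) and *Tsc2* (0.879), and these values were 0.897 to 0.925 without replicate 5. *Mavs* was most like *Cpox* (0.724), *2010001A14Rik* (0.716) and *Rwdd2a* (0.713), at 0.732, 0.785 and 0.709 without replicate 5. *Cgas* and *Tlr3* had means under 1 CPM and were not searched. Among the sensors themselves *Ddx58* and *Eif2ak2* went together most closely (r = 0.926 over 27 libraries, 0.858 over 26 without replicate 5), followed by *Ifih1* and *Eif2ak2* (0.874 and 0.767). *Adar* correlated with *Eif2ak2* at 0.0901 and *Mavs* with *Ddx58* at 0.0301. All the sensors shared their libraries, and sequencing depth enters every value.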

How the data were processed

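RNA sequencing of total RNA from sorted nuclei of 27 mice was analyzed from 1 table. The authors mapped reads with Salmon 1.10.0 to spliced and unspliced mouse transcripts plus human C9ORF72 and EGFP-KASH sequences (GRCm39, R 4.3.1, per the labels), and deposited length-scaled expected counts per gene, 36.8% of which are whole numbers. Multi-mapped reads were kept. Whether strand was used in counting is not given in the sources used here, so reads of overlapping genes on opposite strands may not be separated.

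The estimated counts were rounded, genes filtered with edgeR 4.0.16 (filterByExpr) and scaled by TMM. One quasi-likelihood model held 6 groups and 4 residual-based factors, computed here after the study's approach and not its own factors. Benjamini-Hochberg adjustment ran together over the 3 genotype comparisons and the comparisons of crRNA-13 with NTG and EGFP-KASH only in C9-BACexp mice, and within each other comparison. Alternatives used limma 3.58.1, DESeq2 1.42.0 and R 4.3.3. The code was tested on simulated data. Replicates are separate mice. Groups come from the labels, whose growth and treatment fields describe transfected cells and were not used. Named genes were the 9 sensors, the called genes of 7 lists (up to 4 by adjusted p) and the 3 genes most correlated with each sensor. Some genes that this rule names are not reported here. The members and lists were chosen with earlier results of these data known. Same-numbered mice of different groups were not treated as paired. The median r of their deviations was -0.00307 over 48 pairs (10 over 0.1, largest 0.286), against 0.000135 over 251 other pairs. Whether same-numbered mice shared a litter was not tested. No library was left out except where stated. Intervals from counts of 0 cover counting error only.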

Additional observations from a re-analysis of the deposited data

Results flagged for a closer look

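Single mice lay far from the others of their group, on the log2(CPM + 0.5) scale, in 4 of the 36 combinations of sensor and group with 4 to 6 mice. Chance gives about 1 in 20. *Ifih1* in C57BL/6J NTG replicate 2 was 8.58 CPM, where the next mouse stood at 2.95 CPM. *Ifih1* in C57BL/6J EGFP-KASH only replicate 5 was 3.55 CPM, next to 2.75 CPM. *Dhx58* in C57BL/6J EGFP-KASH only replicate 2 was 3.93 CPM, next to 1.93 CPM. *Eif2ak2* in C9-BACexp crRNA-13 replicate 2 was 16.1 CPM, next to 5.71 CPM. All 4 were high values. The C57BL/6J crRNA-13 group, with 3 mice, was too small for this check, so its replicate 5 could not be assessed in this way.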

How the results depend on the processing

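None of the 201 recomputed differences of called sensors changed sign, and 88 were no longer called. The calls depended on the factors. Without factors or with 2 factors, 0 sensors were called in each of the 3 comparisons with calls (in the C57BL/6J mice, crRNA-13 against NTG with 3 calls and crRNA-13 against EGFP-KASH only with 3, and the genotype comparison with crRNA-13 with 4). Limma-trend without factors also gave 0 in each, and with 4 factors 0, 3 and 4. DESeq2 without factors gave 3, 3 and 2, and with 4 factors it called 1 sensor in C9-BACexp crRNA-13 against NTG, 2 against EGFP-KASH only and 1 between genotypes with NTG, where edgeR called 0. Without a filter on low counts the first of these gave 1, and with a higher fold and an adjusted p under 0.01 it gave 0. Adjusted within each comparison, the genotypes with crRNA-13 gave 1. A replicate block with 4 factors gave 0, 3 and 0, and 2 in C9-BACexp crRNA-13 against EGFP-KASH only, and the block without factors gave 0 in each of the 3. The correlations of same-numbered mice given above do not settle whether the numbers pair these mice. Leaving out 1 library at a time gave 0 to 4 called sensors against NTG, 0 to 5 against EGFP-KASH only and 0 to 5 between genotypes. Leaving out C57BL/6J crRNA-13 replicate 5 and the factors together, chosen after seeing the data, gave 0 in each. The causes were not tested. All 108 group levels under other scalings moved by less than 1 SD, and the values of single libraries by at most 6.5%. Depth limits *Cgas*, *Tlr3* and *Zbp1*, with few counts in most libraries, and 3 mice limit the C57BL/6J crRNA-13 group.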
